A study of Rattus norvegicus with 16 samples.

Results

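The endoplasmic reticulum (ER) is the compartment in which secreted and membrane proteins are folded, and 33 of its folding and unfolded protein response genes are described here, of 45777 gene symbols measured. They were taken by symbol from a fixed list: 4 sensors and factors of the response, 8 chaperones and co-chaperones, 8 lectin chaperones and disulfide enzymes, 8 genes of ER-associated degradation and 5 genes of translocation and export. All 33 were present in the tables of adrenal gland, heart and pancreas. When unfolded protein accumulates in the ER, IRE1 (Ern1), ATF6 and PERK (Eif2ak3) signal to the nucleus and the ribosome: IRE1 splices the Xbp1 messenger, ATF6 is cut to release a transcription factor, and PERK slows translation. Their targets include chaperones such as Hspa5, also called BiP, and the machinery that exports misfolded protein for degradation. Pancreatic acinar cells, which secrete digestive enzymes in bulk, are known for a dense ER that depends on this system.

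The animals were male wildtype Sprague-Dawley rats that received a liquid into the trachea 10 times, every 3 days from 7 weeks of age, and were killed on day 31 of the study, which was 24 h past their final treatment. They received vehicle or the disinfectant benzalkonium chloride (BKC), a quaternary ammonium compound, at 50 µg (BKC50) or 100 µg (BKC100) per rat. Adrenal gland and heart were taken from vehicle, BKC50 and BKC100 rats and pancreas from vehicle and BKC100 rats, with 2 libraries deposited per group. Both adrenals of each rat went into 1 sample, heart tissue is described as left ventricular, and poly(A) RNA was sequenced with a stranded kit. The labels number the libraries of a group but do not say that they came from separate animals, so p-values measure only the spread between these libraries.

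Some libraries stand apart. The second BKC100 heart column equals the second BKC100 adrenal column in 45777 of 45777 genes and was left out, so that 15 libraries remain and BKC100 heart is 1 library. That library goes against its ventricular label: its summed FPKM over 6 atrial markers was 33377, against 49.1 to 226 in the 4 other hearts, and over 5 ventricular markers it was 403, against 15211 to 23168, with Irx4 at 0. Library names also come in 2 styles: vehicle and BKC50 adrenals carry the first, BKC100 adrenals and all pancreas libraries the second, and the vehicle and BKC50 hearts 1 of each. What the naming styles stand for is not stated. In the adrenal gland, BKC100 and the second style cannot be told apart. Organ and style cannot be told apart between vehicle pancreas and vehicle adrenal gland either. The pancreas libraries matched their label, with 14 of 14 acinar markers above 1 FPKM, as did the adrenals, with all 7 cortex and 5 medulla markers above it. In bulk tissue, fewer cells of a type and less RNA per cell cannot be told apart.

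Many of these genes are known to carry elements for the response's transcription factors in their promoters. RefSeq's table (build GRCr8, 250 bases before to 50 after each gene's start) held windows for 25 of the 33 genes. The ER stress response element (ERSE, the letters CCAAT and CCACG with any 9 bases between them, searched on both strands), which ATF6 is known to bind with NF-Y, lay in the window of 9 of the 25 genes (36.0%), against 21 of 27457 genes with windows (0.0765%). The sites are printed because they carry the known link between these genes, 5′ to 3′ in the direction of the motif, with the fixed letters in capitals.
Hspa5: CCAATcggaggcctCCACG
Hsp90b1 (first copy): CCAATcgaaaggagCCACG
Hsp90b1 (second copy): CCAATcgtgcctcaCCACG
Calr: CCAATcagggtcgaCCACG
Canx: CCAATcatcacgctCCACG
Dnajc3: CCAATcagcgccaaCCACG
Creld2: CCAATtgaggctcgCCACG
Ero1b: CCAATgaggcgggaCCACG
Derl3: CCAATaaggaagtcCCACG
Xbp1: CCAATcgcagacggCCACG

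The shorter ERSE-II (ATTGG and CCACG with any 1 base between them, both strands), known from the Herpud1 gene, lay in the windows of 3 more genes (12.0%), against 17 of 27457 (0.0619%), and both copies in Hyou1 fell within 1 of its 2 annotated windows.
Dnajb11: ATTGGcCCACG
Herpud1: ATTGGgCCACG
Hyou1 (first copy): ATTGGcCCACG
Hyou1 (second copy): ATTGGgCCACG

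A UPRE (TGACGTGG, both strands), a motif bound by XBP1 and ATF6, was found in Hyou1 alone of the 25 genes (4.00%), against 187 of 27457 (0.681%), and overlaps the first ERSE-II copy there. None of the 3 motifs was found in 13 genes with a window, which says only that these letters are not in this window. Sel1l, Selenos and Sec61b, the genes that passed a dose test below, are among them. The 250 bases before the start are shown for Hspa5, with its ERSE in capitals, and for Sel1l and Selenos, whose stretches hold no match. The stretches are chr3:38452766-38453015, plus strand, for Hspa5, chr6:116510362-116510611, minus strand, for Sel1l, and chr1:129069990-129070239, plus strand, for Selenos, all printed 5′ to 3′ along the gene.
Hspa5: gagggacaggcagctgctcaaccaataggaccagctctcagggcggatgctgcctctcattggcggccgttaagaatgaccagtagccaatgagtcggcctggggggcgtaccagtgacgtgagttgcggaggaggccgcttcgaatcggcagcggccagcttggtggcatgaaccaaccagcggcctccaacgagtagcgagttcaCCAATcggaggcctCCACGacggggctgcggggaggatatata
Sel1l: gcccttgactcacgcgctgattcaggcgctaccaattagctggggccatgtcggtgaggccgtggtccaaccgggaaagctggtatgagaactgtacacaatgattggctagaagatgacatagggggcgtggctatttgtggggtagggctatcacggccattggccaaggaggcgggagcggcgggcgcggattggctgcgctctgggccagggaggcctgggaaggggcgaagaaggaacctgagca
Selenos: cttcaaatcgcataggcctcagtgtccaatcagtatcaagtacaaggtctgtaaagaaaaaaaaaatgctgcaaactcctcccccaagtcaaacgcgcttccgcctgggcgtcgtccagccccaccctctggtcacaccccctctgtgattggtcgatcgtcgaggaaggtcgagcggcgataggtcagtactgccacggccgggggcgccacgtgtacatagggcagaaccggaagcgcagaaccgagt

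Within each library, the ER genes stood higher in the ranking of genes in pancreas than in the other organs. Their median percentile among 12422 ranked genes was 96.5 to 96.8 in the 4 pancreas libraries, against 86.0 to 87.6 in the 6 adrenal libraries and 77.5 to 82.6 in the 5 heart libraries. For 27 of the 33 genes, all 4 pancreas libraries gave a higher percentile than all 11 others, and for none a lower one; over all ranked genes, 16.5% were above and 13.5% below. A gene was ranked if it averaged 1 FPKM or more over the 6 vehicle libraries of the 3 organs, and Derl3 is among them only through its pancreas values. Among genes averaging 1 FPKM or more in vehicle libraries of each organ, a count added after the data were seen, 26 of 32 ER genes were above and 0 below, beside 25.7% and 12% of 5271 genes. The 6 that overlapped were Hspa5, Calr, Dnajb9, Derl1, Derl2 and Sec61b. A rank does not depend on how a library is scaled, but it does depend on how many other genes an organ expresses.

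Wide gaps in rank were seen in several roles. Ero1b, the oxidase that recharges protein disulfide isomerases, lay at percentiles 97.8 to 98.3 in pancreas, against 18.9 to 35.2 in adrenal gland and 19.4 to 26.0 in heart. Among the sensors, Eif2ak3 ranked at 94.3 to 96.8 in pancreas, against 16.2 to 33.1 in adrenal gland and 36.7 to 48.5 in heart. Derl3, a derlin of the retrotranslocation machinery, lay at 87.2 to 94.3 in pancreas, against 4.24 to 10.8 in adrenal gland and 1.06 to 7.06 in heart, with a mean below 1 FPKM in the vehicle libraries of both. Sec61b, a subunit of the translocation channel, was an exception, at 98.0 to 98.1 in pancreas, against 98.7 to 99.2 in adrenal gland and 65.3 to 78.3 in heart.

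**Figure D1:**
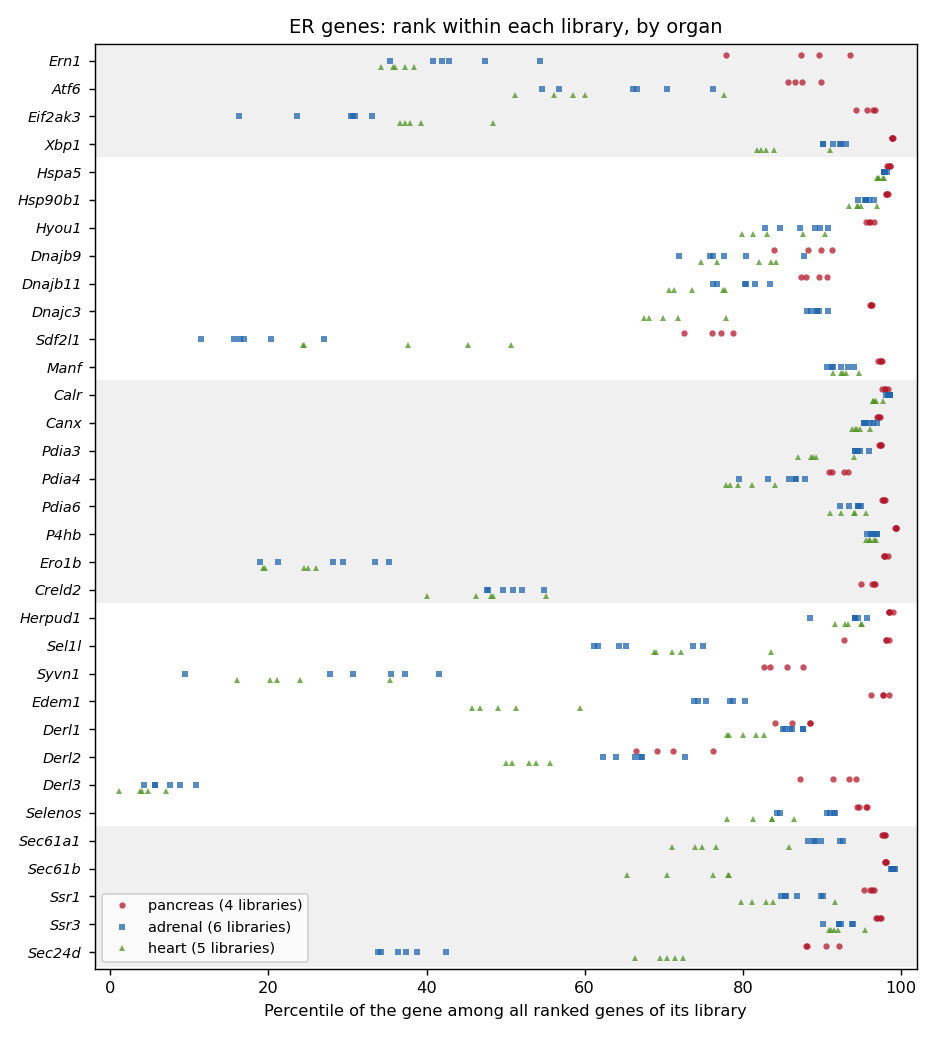
Percentile of each ER gene (rows, shaded by role) among the 12422 ranked genes of its library; each point is 1 library of pancreas, adrenal gland or heart. The pancreas points lie right of all other points for 27 genes, with wide gaps at Ero1b and Eif2ak3, and at Derl3, which is ranked through pancreas alone.

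In FPKM (fragments per transcript length and sequencing depth), the order of the genes differed between organs. In vehicle pancreas P4hb, a protein disulfide isomerase, led with 135 ± 25.9 FPKM (SD, n = 2), followed by Xbp1 with 80.6 ± 22.6, Hspa5 with 43.9 ± 9.81, Herpud1 with 43.7 ± 2.94 and Sel1l with 38.3 ± 7.03; the last 3 lie within their spread. In vehicle adrenal gland Sec61b led with 491 ± 18.4 FPKM, ahead of Calr with 299.6 ± 0.714, Hspa5 with 225 ± 1.82 and P4hb with 140.4 ± 9.36. In vehicle heart Hspa5 with 198 ± 71.7 FPKM, Calr with 144 ± 36.2 and P4hb with 119 ± 47.0 led and lay within their spread. Derl3 had the lowest level in adrenal gland, 0.530 ± 0.173 FPKM, and in heart, 0.112 ± 0.00753 FPKM.

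Fold differences in FPKM between organs depend on the scaling. Vehicle pancreas libraries carry the second naming style and vehicle adrenals the first, so organ and style cannot be told apart between them. In pancreas 14 acinar enzyme and factor genes took 28.3% to 32.9% of all FPKM, and elsewhere at most 0.00147%. On the FPKM scale, vehicle pancreas against vehicle adrenal gland had an all-gene median of -2.39 (log2), with 2.47% of genes higher and 89.5% lower (limma, adjusted p under 0.05). Of the 33 ER genes, 4 were higher (Ero1b, Derl3, Sel1l, Eif2ak3) and 22 lower, with a median of -1.71. After median-ratio scaling, which moved the all-gene median to -0.17, 26 were higher and 0 lower, with a median of 1.51; 21.8% of all genes were higher and 34.4% lower. The direction of most ER genes turned with the scaling, and Hspa5, for example, was at -2.35 on the FPKM scale and 0.98 after median-ratio scaling. Derl3 is in this fit only through its pancreas values, so its call as higher is not independent of the filter.

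Against vehicle heart the pattern was alike. On the FPKM scale 8 of 33 ER genes were higher in vehicle pancreas and 19 lower, with a median of -0.94 beside an all-gene median of -1.84 (2.93% of all genes higher, 86.2% lower). After median-ratio scaling 29 were higher and 0 lower, with a median of 1.50 (21.3% of all genes higher, 32.9% lower). Derl3 is among the higher genes on both scales, and is again tested only through its pancreas values. Ero1b was 40.4 and 22.8 FPKM in vehicle pancreas, against 5.47 and 4.48 in vehicle adrenal gland and 2.03 and 2.48 in vehicle heart. Its pancreas libraries lay above those of both other organs, with log2 differences of 2.40 (SE 0.287) from adrenal gland and 3.27 (SE 0.287) from heart, larger still after median-ratio scaling. Xbp1 was 96.6 and 64.6 FPKM in vehicle pancreas, against 28.3 and 21.0 FPKM in vehicle heart, a log2 difference of 1.66 (SE 0.347), and its 59.8 and 55.5 FPKM in vehicle adrenal gland lay below both pancreas values without passing the test (0.45, SE 0.347). Each gene has 1 value per library, so the spliced and unspliced Xbp1 messengers are not separated.

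In pancreas, 1 of the 33 ER genes passed the test between BKC100 and vehicle, and for 26 the libraries of both groups overlapped. Of 5610 genes tested, 0.392% passed (limma, adjusted p under 0.05): 0.16% higher and 0.232% lower in BKC100. All 33 ER genes were tested, and 0 rose and 1, Sel1l, fell. Their median log2 change was -0.08, beside -0.07 over all genes tested. The BKC100 libraries lay above both vehicle libraries for 3 ER genes (Edem1, Ern1, Eif2ak3) and below both for 4 (Sel1l, Calr, Pdia4, Sec24d); over all genes tested 5.06% lay above and 11% below.

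Sel1l encodes the adaptor that holds the ubiquitin ligase Syvn1 (HRD1) in the ER degradation complex. It measured 6.38 and 27.8 FPKM in BKC100 pancreas, against 33.3 and 43.3 FPKM in vehicle pancreas. Both BKC100 values are below both vehicle values, but the first BKC100 library stands far from the second, which is close to the lower vehicle library. The log2 change was -1.42 (SE 0.376, 95% interval -2.16 to -0.68, limma adjusted p = 0.0446). The call ended when any library was left out: without BKC100 replicate 1 the change was -0.44 (adjusted p = 1.00), without BKC100 replicate 2 -2.40 (1.00), without vehicle replicate 1 -1.60 (0.841) and without vehicle replicate 2 -1.24 (0.654). It also ended without robust shrinkage (adjusted p = 0.119), with median-ratio scaling (0.839) and with the gene's own spread, a residual SD of 0.998, in place of the shared one (1.00). Its ligase partner Syvn1 had 3.65 and 2.60 FPKM in BKC100 pancreas, against 3.39 and 2.70 FPKM in vehicle pancreas, and the libraries of both groups interleaved.

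BKC100 replicate 1, in which Sel1l was lowest, gave the highest value of the 4 libraries for 10 other ER genes, beside 14.2% of all genes tested. Edem1, which hands misfolded glycoproteins to degradation, had 39.9 and 22.3 FPKM in BKC100 pancreas, against 14.1 and 20.0 FPKM in vehicle pancreas (log2 change 0.79, SE 0.371, limma adjusted p = 1.00). Herpud1, a membrane component of the same complex, had 81.7 and 43.7 FPKM in BKC100 pancreas, against 45.8 and 41.6 FPKM in vehicle pancreas, and the groups overlap. Ern1, the IRE1 sensor, had 7.08 and 3.87 FPKM in BKC100 pancreas, against 2.69 and 3.06 FPKM in vehicle pancreas (0.70, SE 0.327, adjusted p = 1.00). For these 3, the second BKC100 library lay near the vehicle libraries. The unadjusted p-values of Edem1 and Ern1 were 0.0334 and 0.0330, and with Sel1l they made up the 3 ER genes of 33 under 0.05, beside 124 of all genes tested (2.21%).

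The other sensors and factors gave no call. Eif2ak3 measured 13.0 in both BKC100 libraries, against 12.6 and 6.78 FPKM in vehicle pancreas, so that vehicle replicate 2 alone stood apart. Atf6 had 3.41 and 3.98 FPKM in BKC100 pancreas, against 4.52 and 2.71 FPKM in vehicle pancreas. Xbp1 had 66.0 and 64.9 FPKM in BKC100 pancreas, against 96.6 and 64.6 FPKM in vehicle pancreas, with only vehicle replicate 1 high.

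None of the 8 chaperones and co-chaperones passed, and all 8 overlapped between the groups, with a median log2 change of -0.04. Hspa5, which holds the sensors inactive when unbound to client protein, had 49.3 and 32.4 FPKM in BKC100 pancreas, against 50.9 and 37.0 FPKM in vehicle pancreas (log2 change -0.11, 95% interval -0.82 to 0.59). Hsp90b1, the ER form of HSP90, had 36.2 and 28.4 FPKM in BKC100 pancreas, against 35.4 and 25.9 FPKM in vehicle pancreas. Replicate 1 was the higher library in both groups for both genes. Manf, a secreted cofactor of Hspa5, had 20.0 and 16.5 FPKM in BKC100 pancreas, against 22.1 and 14.9 FPKM in vehicle pancreas.

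The 8 lectin chaperones and disulfide enzymes had negative log2 changes throughout on the FPKM scale, with a median of -0.28, but 0 passed, and after median-ratio scaling 2 of the 8 were positive. Calr, a lectin chaperone that buffers ER calcium, had 24.5 and 19.0 FPKM in BKC100 pancreas, against 39.4 and 24.8 FPKM in vehicle pancreas (log2 change -0.52, SE 0.369, limma adjusted p = 1.00). The groups did not overlap, yet the second vehicle library was within 1 FPKM of the first BKC100 library. Pdia4, a disulfide isomerase, had 5.27 and 4.43 FPKM in BKC100 pancreas, against 8.42 and 5.36 FPKM in vehicle pancreas, and Ero1b had 21.7 and 24.5 FPKM in BKC100 pancreas, against 40.4 and 22.8 FPKM in vehicle pancreas. In all 3 genes vehicle replicate 1 is the library that stands high.

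That library was the highest of the 4 for 22 of the 33 ER genes, and BKC100 replicate 2 was the lowest for 16 and vehicle replicate 2 for 13. Over all 5610 genes tested, vehicle replicate 1 was the highest for 77.0%, BKC100 replicate 2 the lowest for 25.0% and vehicle replicate 2 the lowest for 60.2%. Vehicle replicate 1 had 6595 genes above 1 FPKM, against 4763 to 5575 in the other pancreas libraries. The 5 genes of translocation and export were also highest in vehicle replicate 1, with log2 changes of -0.46 to -0.12 and no call. Sec24d, a coat protein of vesicles leaving the ER, had 3.83 and 3.45 FPKM in BKC100 pancreas, against 5.85 and 4.98 FPKM in vehicle pancreas, without overlap (-0.46, SE 0.333, limma adjusted p = 1.00). Leaving out vehicle replicate 1 moved the median over the ER genes to 0.12, and leaving out vehicle replicate 2 moved it to -0.26. The makeup of the pieces also varied: Ins1, an islet hormone, had 259 and 164 FPKM in BKC100 pancreas, against 282 and 36.9 FPKM in vehicle pancreas, and 8 islet markers summed to 299 to 475 FPKM in BKC100 and 64.7 to 526 FPKM in vehicle. The 7 fat markers summed to 11.4 to 13.8 FPKM in BKC100 pancreas and 24.2 to 33.4 FPKM in vehicle pancreas, with Ucp1 at 0. Rn7sl1, a non-coding RNA, took 23.6% and 19.8% of FPKM in BKC100 pancreas and 14.5% and 15.9% in vehicle pancreas. Their part in the result was not tested.

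**Figure D2:**
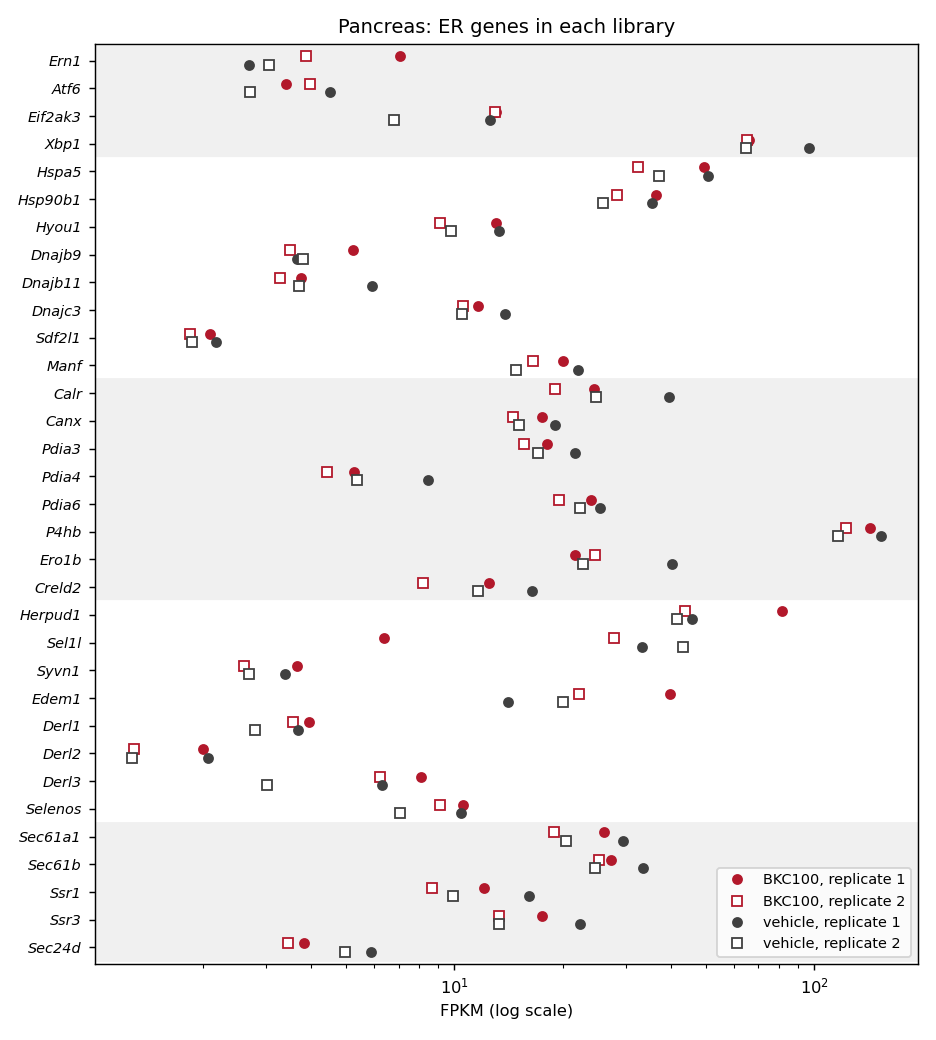
FPKM of each ER gene (rows, shaded by role; log axis) in the 2 BKC100 and 2 vehicle pancreas libraries. Most genes overlap, while BKC100 replicate 1 stands alone at Sel1l (6.38), Edem1 (39.9), Herpud1 (81.7) and Ern1 (7.08).

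Beyond the 33 genes, 5 longer lists of the same pathways gave 1 call in pancreas, where 0.392% of all genes tested passed. Of the 23 listed genes of the PERK and ATF4 branch, 19 were tested and Chac1, a glutathione-degrading enzyme induced downstream of ATF4, fell. It measured 1.05 and 0.608 FPKM in BKC100 pancreas, against 4.51 and 2.40 FPKM in vehicle pancreas (log2 change -1.25, SE 0.285, limma adjusted p = 0.00593), but 0.107 after median-ratio scaling. The other lists had 0 calls of 19 genes of ER folding, 19 of degradation, 42 of translocation, glycosylation and export, and 7 regulators of the response.

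In adrenal gland, 2 of 32 ER genes tested were lower in BKC100 than in vehicle libraries and 0 higher. Of 12578 genes 9.78% passed (limma, adjusted p under 0.05), 1.8% higher and 7.98% lower, so the ER genes' share was no larger than that of all genes. Derl3 was below the filter of a mean of 1 FPKM. The median log2 change of the ER genes was -0.20, beside -0.28 over all genes tested. Median-ratio scaling moved the all-gene median to -0.04 and the ER gene median to 0.07, and then 0 ER genes passed, with 1.29% of all genes higher and 1.01% lower. Rn7sl1 took 10.3% and 9.50% of FPKM in BKC100 adrenals and 27.0% to 35.9% in vehicle and BKC50 adrenals, along with the naming style. Rpph1, another non-coding RNA, took 3.75% and 3.82% in BKC100 adrenals and 8.69% to 26.0% in vehicle and BKC50 adrenals. The part of these RNAs in the result was not tested. The macrophage markers, 6 of 6 found, summed to 67.0 to 94.8 FPKM in BKC100 adrenals and 123 to 135 FPKM in vehicle adrenals, a gap made mostly by C1qa, C1qb and C1qc, while Cd68 and Cd163 overlapped. The 6 fibroblast markers summed to 118 to 175 FPKM in BKC100 adrenals and 190.3 to 222 FPKM in vehicle adrenals, a gap made mostly by Dcn. Lum also lay below vehicle, Col1a1, Col1a2 and Col3a1 overlapped, and Pdgfra lay above vehicle. The 7 fat markers summed to 133 to 572 FPKM in BKC100 adrenals, on both sides of the 215 to 254 FPKM in vehicle adrenals. The part of these cells in the result was likewise not tested.

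Selenos, a selenoprotein that links the derlins to the cytosolic extraction machinery, had 30.5 and 32.5 FPKM in BKC100 adrenals, against 69.7 and 60.7 FPKM in vehicle adrenals. The groups lay far apart, and BKC50 adrenals, with 52.3 and 64.7 FPKM, overlapped the vehicle. The log2 change against vehicle was -1.02 (SE 0.207, 95% interval -1.47 to -0.58, limma adjusted p = 0.0140) and against BKC50 -0.87 (SE 0.207, adjusted p = 0.0449). Its percentile within the library was 84.4 and 84.7 in BKC100 adrenals, against 91.7 and 91.1 in vehicle adrenals. After median-ratio scaling the change against vehicle was -0.75 (adjusted p = 0.0657), and it missed the threshold without vehicle replicate 1 (-0.93, 0.0890) and without BKC100 replicate 1 (-0.98, 0.0628). The call against BKC50 ended without any 1 of the libraries compared, with adjusted p of 0.0501 to 0.258.

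Sec61b had 308 and 319 FPKM in BKC100 adrenals, against 478 and 504 FPKM in vehicle adrenals, with 423 and 496 FPKM in BKC50 adrenals. The BKC100 libraries were the lowest of the 6, with a log2 change of -0.65 from vehicle (SE 0.183, 95% interval -1.04 to -0.25, limma adjusted p = 0.0439). Median-ratio scaling gave -0.37 (adjusted p = 0.277). The call also ended without vehicle replicate 1 (0.139) or 2 (0.127) and without BKC100 replicate 1 (0.229) or 2 (0.0831).

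The lectin chaperones and disulfide enzymes lay closest behind. Pdia6 had 59.1 and 68.5 FPKM in BKC100 adrenals, against 99.3 and 101 FPKM in vehicle adrenals (log2 change -0.65, SE 0.193, limma adjusted p = 0.0517). Pdia4 had 23.2 and 29.9 FPKM in BKC100 adrenals, against 49.8 and 40.5 FPKM in vehicle adrenals (-0.75, SE 0.223, adjusted p = 0.0521). Both lay without overlap, as did 6 of the 8 genes of this role, all below vehicle; over all genes tested 47.5% lay below and 13.5% above. Pdia6 passed when either BKC50 library was left out, and Pdia4 when either BKC50 library or BKC100 replicate 2 was, so that the number of ER genes that fell ran from 0 to 4. The 4 calls without BKC100 replicate 2 were Eif2ak3, Herpud1, Pdia4 and Selenos, in a fit where 14.3% of all genes were lower.

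The sensors lay on both sides of vehicle. Eif2ak3 had 1.56 and 3.14 FPKM in BKC100 adrenals, against 4.64 and 5.18 FPKM in vehicle adrenals (log2 change -0.86, SE 0.311, limma adjusted p = 0.0928). Atf6 had 19.7 and 16.9 FPKM in BKC100 adrenals, against 11.2 and 11.9 FPKM in vehicle adrenals (0.62, SE 0.228, adjusted p = 0.0965), with 14.2 and 16.8 FPKM in BKC50 adrenals. In neither gene did the groups overlap, and neither change passed. Atf6 did pass as higher after quantile normalization and with protein-coding genes set to equal sums, while Ern1 and Xbp1 overlapped, Xbp1 at 60.3 and 54.2 FPKM in BKC100 adrenals, against 59.8 and 55.5 FPKM in vehicle adrenals.

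Of the chaperones, 5 of 8 overlapped and 0 passed. Hspa5 had 216 and 179 FPKM in BKC100 adrenals, against 226 and 224 FPKM in vehicle adrenals (log2 change -0.19, 95% interval -0.60 to 0.21). Hsp90b1 had 103 and 113 FPKM in BKC100 adrenals, against 115 and 112 FPKM in vehicle adrenals, and Hyou1, a nucleotide exchange factor for Hspa5, had 31.1 and 46.4 FPKM in BKC100 adrenals, against 35.5 and 44.3 FPKM in vehicle adrenals. Hspa5 lay below vehicle in both libraries, and the groups overlapped for the other two. Herpud1 had 40.9 and 79.0 FPKM in BKC100 adrenals, against 120 and 89.0 FPKM in vehicle adrenals, a difference that did not pass (-0.85, SE 0.295, adjusted p = 0.0933) and in which the first BKC100 library was the lowest.

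**Figure D3:**
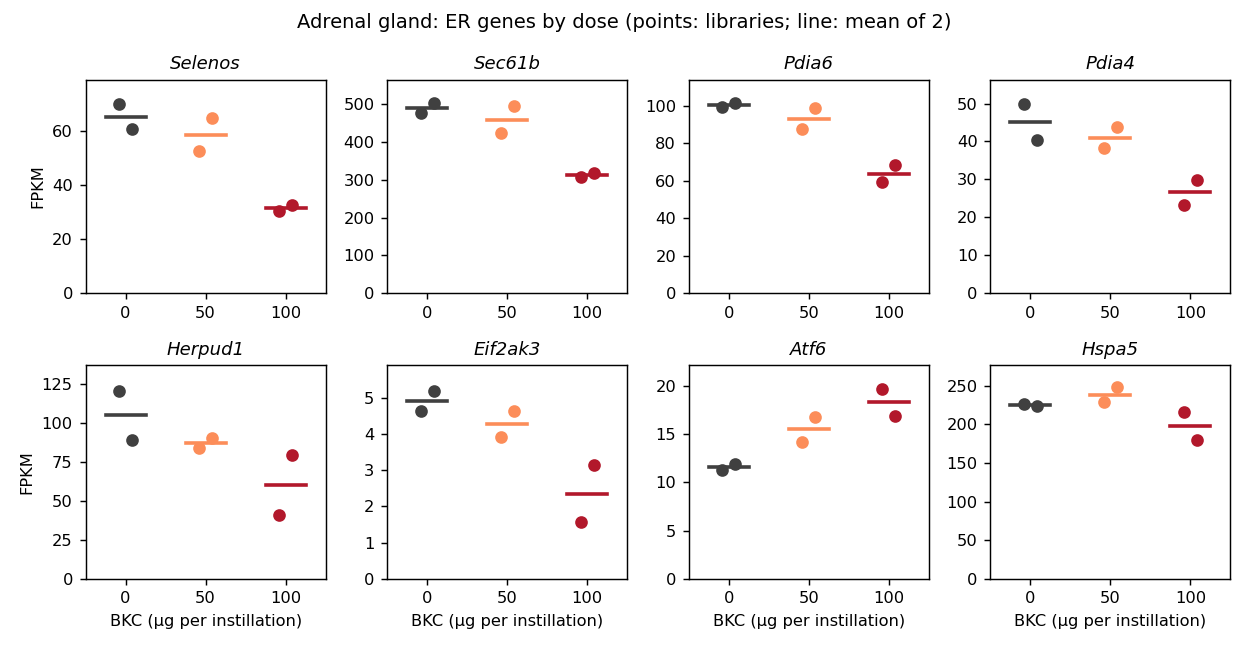
FPKM of 8 ER genes in adrenal gland at 0, 50 and 100 µg BKC; points are libraries and lines the mean of 2, and axes start at 0. Selenos (30.5 and 32.5 at 100 µg) and Sec61b (308 and 319) lie below all other libraries, Atf6 lies above vehicle at 100 µg, and Hspa5 lies slightly below vehicle at 100 µg (216 and 179).

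In the longer lists 8 genes fell in adrenal gland. The share of a list that fell ran from 0% to 9.09%, beside 7.98% of all genes tested. In the ER folding list 2 of 22 genes fell, Ppib and Selenof, in the degradation list 1 of 22, Edem2, and of the regulators 0 of 8. In translocation, glycosylation and export 4 of 46 fell: the signal peptidase subunit Spcs3, the signal recognition particle protein Srp14, the TRAP subunit Ssr4 and the channel subunit Sec61g. In the PERK and ATF4 branch 1 of 22 fell, Cth, an enzyme of cysteine synthesis, with 6.04 and 3.56 FPKM in BKC100 adrenals, against 17.9 and 13.4 FPKM in vehicle adrenals (log2 change -1.54, SE 0.288, limma adjusted p = 0.0115). No listed gene rose on the FPKM scale (1 of the degradation list did after median-ratio scaling), and after median-ratio scaling none of the 8 that fell passed, with adjusted p of 0.0644 to 0.218.

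No ER gene passed between BKC50 and vehicle in adrenal gland. Of 12578 genes 0.0318% passed, and 0 of 32 ER genes did, 0 of them even at an unadjusted p under 0.05 (limma), which 11.3% of all genes met. The 4 genes called in all became 82 higher and 123 lower when only these groups were fitted, and 75 and 108 or 67 and 93 when the first or second BKC100 library was left out. They became 1 and 0 or 23 and 9 without the first or second BKC50 library, and 5 and 5 or 46 and 67 without the first or second vehicle library, with 0 ER genes in each fit. The smallest adjusted p was 0.463, for Sec61a1, the channel's main subunit, with 65.5 and 70.5 FPKM in BKC50 adrenals, against 51.4 and 50.9 FPKM in vehicle adrenals (log2 change 0.40, SE 0.193). The ER gene median was -0.12, and the BKC50 libraries lay above both vehicle libraries for 9 ER genes (16.5% of all genes) and below both for 9 (29.6%). The adrenal comparisons share libraries with each other. BKC50 replicate 1 stood apart, with an FPKM sum of 1004890, against 391123 to 710106 in the other adrenals. Rpph1 took 26.0% of its FPKM, against 3.75% to 12.5% in the other adrenals. Between the doses, 2.96% of genes passed, 2.34% lower at BKC100, and of 32 ER genes Selenos alone did; P4hb was nearest, with 96.6 and 105 FPKM at BKC100, against 152 and 170 FPKM at BKC50 (-0.67, SE 0.187, adjusted p = 0.0766). In the longer lists Ssr4 and Slc3a2, a heavy chain of amino acid transporters, were lower at BKC100 than at BKC50, and both missed the threshold after median-ratio scaling (limma adjusted p = 0.131 and 0.103).

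**Figure D4:**
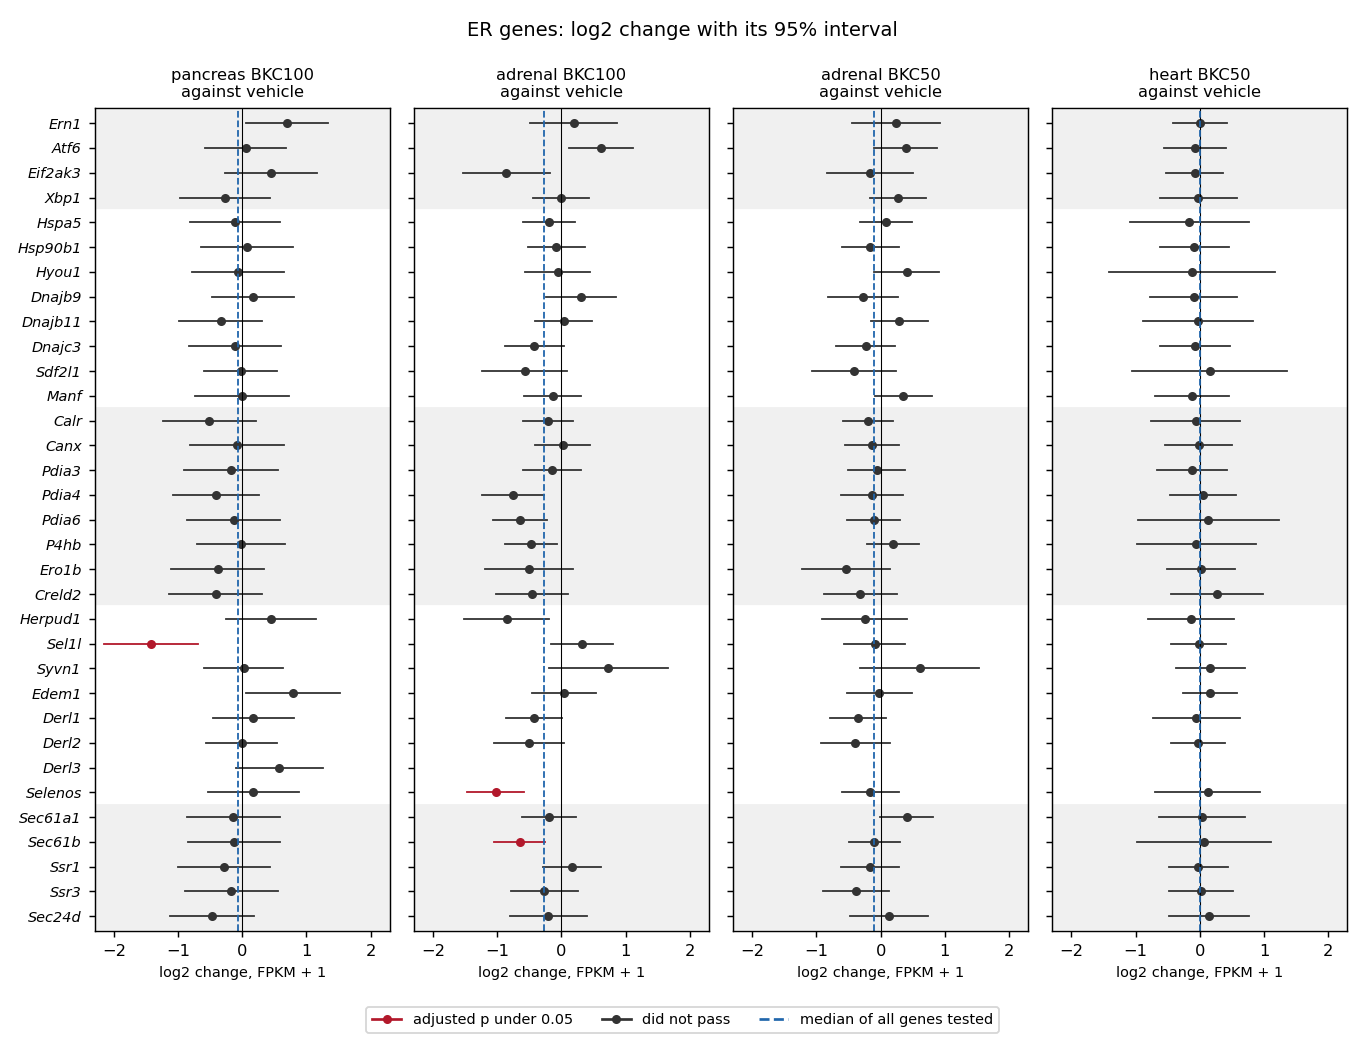
Log2 change of each ER gene with its 95% interval (limma) in 4 comparisons with vehicle; red marks adjusted p under 0.05 and the dashed line the median of all genes tested. Sel1l in pancreas and Selenos and Sec61b in adrenal gland are the only red points, and most intervals cover 0.

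The 100 µg effects in pancreas and adrenal gland were compared in 1 fit. The pancreas change lies within the second naming style, while the adrenal change sets second-style BKC100 against first-style vehicle. A difference between the organs' changes therefore cannot be told apart from the style. Of 11567 genes 2.22% differed, and 0 of 33 ER genes did (limma), with 3 under an unadjusted p of 0.05, beside 18.2% of all genes. Selenos had the smallest adjusted p of the ER genes, 0.0897: its pancreas change minus its adrenal change was 1.20 (SE 0.363, 95% interval 0.44 to 1.95), from 0.17 in pancreas and -1.02 in adrenal gland. Eif2ak3 followed with 1.30 (SE 0.400, adjusted p = 0.104), from 0.44 in pancreas and -0.86 in adrenal gland. For Sel1l the difference was -1.74 (SE 0.890, adjusted p = 0.376), with 17.5 and 20.1 FPKM in BKC100 adrenals, against 14.3 and 15.3 FPKM in vehicle adrenals. The calls were not stable to single libraries, and neither were those of all genes. Eif2ak3 and Herpud1 passed as higher without adrenal BKC100 replicate 2, when 14.2% of all genes were higher. Syvn1 passed as lower without adrenal vehicle replicate 2, when 1.56% of all genes were lower. Herpud1 passed as higher and Sel1l as lower without pancreas BKC100 replicate 2, when 1.06% were higher and 0.88% lower.

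In heart, no ER gene passed between BKC50 and vehicle: 0 of 12099 genes passed (0%) and 0 of 32 ER genes, with 45 genes (0.372%) and 0 ER genes under an unadjusted p of 0.05 (limma). The ER gene median was -0.02. Hspa5 had 200.3 and 147 FPKM in BKC50 hearts, against 249 and 148 FPKM in vehicle hearts, and the interval of its log2 change was wide, -1.09 to 0.77. Each group's first-style library was the higher one. Edem1 alone of the 33 did not overlap, with 6.42 and 6.39 FPKM in BKC50 hearts, against 5.87 and 5.44 FPKM in vehicle hearts; 6.99% of all genes lay above in this way and 6.59% below.

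The naming styles were compared in the 4 vehicle and BKC50 hearts, a comparison added after the data were seen. Of 11936 genes 35.3% passed, 26.6% higher in the first style and 8.63% lower (limma, adjusted p under 0.05, with the group as a term). The fit leaves 1 residual degree of freedom per gene, so its SEs lean on the spread shared over genes. Of 32 ER genes 11 were higher and 2 lower, with a median log2 difference of 0.20. The 11 were Hspa5, Hyou1, Dnajb11, Creld2, Pdia6, P4hb, Selenos, Derl1, Xbp1, Sec61b and Sec24d, and the 2 were Dnajb9 and Herpud1. Selenos and Sec61b are also the genes called lower in BKC100 adrenals, which carry the second style. Selenos had 27.9 and 27.5 FPKM in first-style hearts, against 17.1 and 20.7 FPKM in second-style hearts. Sec61b had 20.3 and 18.0 FPKM, against 10.0 and 12.5 FPKM. The part of the style in the adrenal calls was not tested. Hyou1 had 48.2 and 36.2 FPKM in the first style, against 20.4 and 23.0 FPKM in the second (0.92, SE 0.161, adjusted p = 0.0245). Pdia6 had 79.3 and 79.8 FPKM in the first style, against 42.1 and 50.4 FPKM in the second (0.77, SE 0.0888, adjusted p = 0.0106). The balance depends on scaling. With protein-coding genes set to equal sums 1 was higher and 7 lower, beside 9.17% of all genes higher and 26.3% lower. Dnajb9 and Herpud1 stayed lower, while Hspa5, Hyou1, Selenos and Sec61b no longer passed.

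The lone BKC100 heart library, atrial in its markers, was above all 4 other hearts for 18 of the 33 ER genes and below for 2, Hyou1 and Herpud1. Over all genes tested 33.2% lay above and 33.3% below. Atf6 had 16.9 FPKM in it, against 8.15 and 8.03 FPKM in vehicle hearts, with 6.89 and 8.50 FPKM in BKC50 hearts. Ssr1, a subunit of the translocon-associated complex, had 43.5 FPKM in it, against 24.0 and 22.6 FPKM in vehicle hearts, and Sel1l had 22.6 FPKM, against 13.2 and 13.1 FPKM in vehicle hearts. These values rest on 1 library whose tissue piece differs from the others, so BKC100 and the piece cannot be told apart.

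With the lone library assumed to vary like the other groups, 0.81% of 12099 genes and 0 of 32 ER genes passed (limma), 7 of them under an unadjusted p of 0.05, beside 17.3% of all genes. Atf6 had a log2 difference of 0.98 (SE 0.223, adjusted p = 0.147), Ssr1 of 0.87 (SE 0.210, 0.158) and Sel1l of 0.75 (SE 0.198, 0.183). With the naming style as a covariate 12 ER genes were higher and 1 lower, beside 14.3% of all genes higher and 15% lower, from 1 residual degree of freedom. Against the vehicle library of its own style the median log2 difference of the ER genes was 0.44, beside 0.04 over all genes tested. Against the other vehicle library the ER gene median was 0.10, beside -0.06 over all genes tested.

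**Figure D5:**
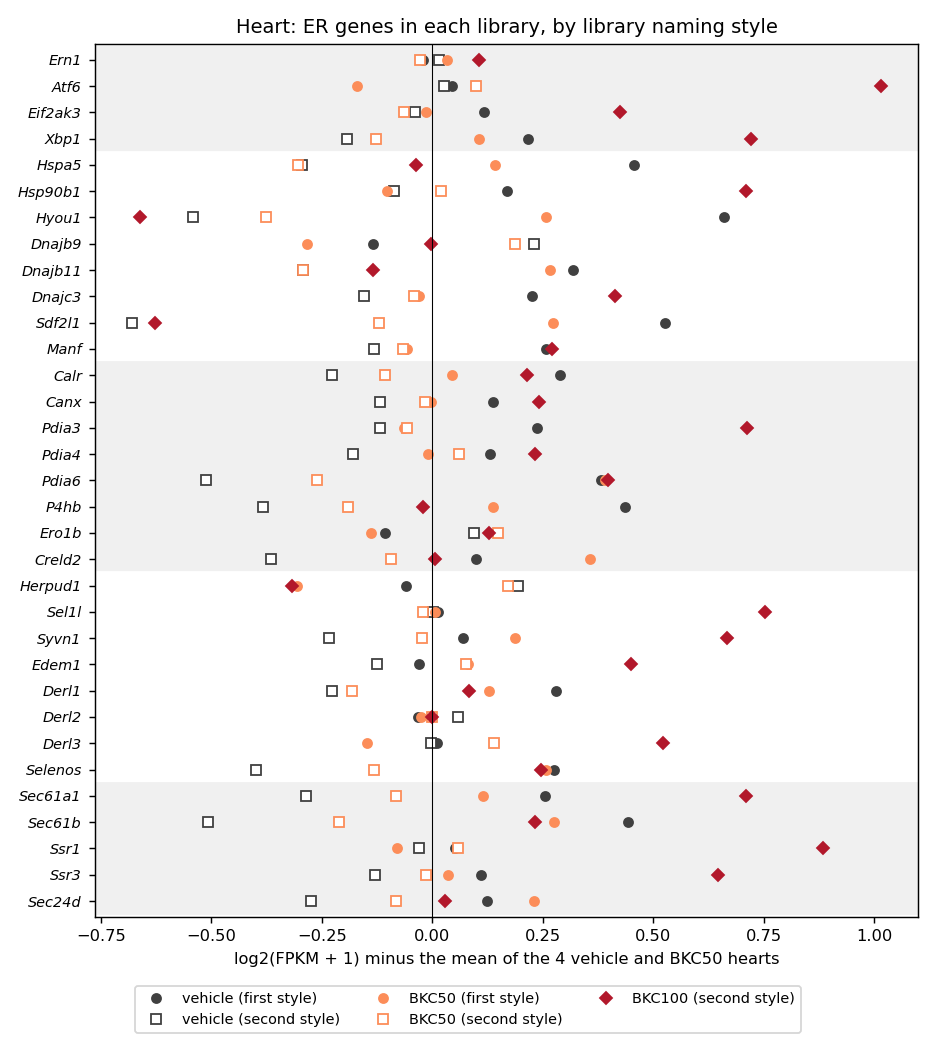
Log2(FPKM + 1) of each ER gene in the 5 heart libraries, relative to the mean of the 4 vehicle and BKC50 hearts; colours mark the groups, filled circles are first-style and open squares second-style libraries, and the diamond is the lone BKC100 library. The styles separate at Hspa5, Hyou1 and Pdia6, and the diamond lies right of all others at 18 genes, with Atf6 farthest.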

How the data were processed

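Expression was measured by poly(A) RNA sequencing. The deposited tables hold 1 normalized value per gene symbol and library; their unit is not named, and the values were read as FPKM made by the authors, per the submitters' processing notes, which list StringTie 2.1.3b, HISAT2 2.1.0 and edgeR 3.40.2 but no roles. The genome build is not given in the sources used here. Low values showed no step of a single read, so depth is unknown and no counting interval can be given. All 16 columns were matched to samples, and 1 was left out as a copy.

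Genes averaging 1 FPKM or more in the fitted libraries were tested on log2(FPKM + 1) with limma 3.58.1 in R 4.3.3, with 1 mean per group, trended and robust variance shrinkage and Benjamini-Hochberg adjustment over all genes tested, two-sided, called at an adjusted p under 0.05; fold changes on this scale understate those of low genes. The procedure was tested on simulated data, but not for the BKC100 heart and naming style comparisons. The simulated spread was set and not taken from these libraries, so that test says nothing on single calls such as Sel1l. Alternatives changed the pseudocount to 0.1, the filter, the scaling, the shrinkage, the block or the libraries. All 33 members and, of each longer list, up to 4 called genes by smallest p were eligible to be named. Members, roles, lists and tests were chosen with earlier results of these data known.

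Replicate numbers were not taken as pairs, since the labels give no shared animal or batch and a group has only 2 libraries. Same-numbered deviations correlated at 0.423 in pancreas, -0.145 to 0.143 in adrenal gland and 0.743 in heart, where in the vehicle and BKC50 groups the number coincides with the naming style.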

Additional observations from a re-analysis of the deposited data

How the results depend on the processing

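Leaving out 1 library in 51 fits gave 102 counts of ER genes called (higher and lower each). Of these, 83 kept to within 1.5 times of the reported number, as did 117 of 154 counts from other settings. Counts that were 0 and stayed 0 are among those kept. The shares therefore do not measure how stable the dose calls were. In pancreas the 1 gene that fell was 0 with no filter, median-ratio scaling, quantile normalization, no robust shrinkage, protein-coding genes at equal sums, no variance shrinkage and without any 1 library (0 to 0). In adrenal gland at BKC100 the 2 that fell were 0 with no filter, median-ratio scaling and protein-coding equal sums, and 1 with quantile normalization and no robust shrinkage; 1 rose with quantile normalization and 1 with equal sums; leaving out 1 library gave 0 to 4 that fell, while the number of all genes that were lower ran from 174 to 1804. Between the adrenal doses the 1 that fell was 0 with no filter, median-ratio scaling, quantile normalization, no robust shrinkage and equal sums, and 0 to 1 without 1 library. In the fit between the doses without BKC100 replicate 2 the gene counted was Herpud1, not Selenos. For these counts the cause was not tested. That includes the larger number of genes adjusted over when no filter was set and the fewer libraries in the left-out fits.

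Between vehicle organs, scaling turned the picture. The counts of higher genes under each scaling include Derl3, which is tested only through its pancreas values. Median-ratio scaling gave 26 higher and 0 lower against adrenal gland and 29 higher and 0 lower against heart; quantile normalization gave 28 and 1, and 31 and 0. Calr turned to 0.10 and Hspa5 to 0.98 against adrenal gland with median-ratio scaling, and Hspa5 to 0.53 with quantile normalization. Against heart, Calr turned to 0.61 and 0.96, Hspa5 to 0.64 and 0.83 and Derl1 to 0.10 and 0.38 under the 2 scalings. Without 1 library 2 to 5 were higher against adrenal gland and 5 to 10 against heart. For the difference between pancreas and adrenal effects, leaving out 1 library gave 0 to 2 higher and 0 to 1 lower. For the heart naming styles, no filter gave 0 higher and 0 lower, quantile normalization 5 higher, and equal sums 1 higher and 7 lower, beside 1095 and 3144 of all 11936 genes.

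With a replicate block, although the numbers were not taken as pairs, the pancreas count stayed 1, the adrenal BKC100 count was 1, the count between adrenal doses 0, and the BKC100 heart had 10 higher and 2 lower, beside 2010 and 3317 of all genes; the naming style covariate gave 12 higher and 1 lower there, beside 1733 and 1812. In the vehicle and BKC50 hearts the replicate number coincides with the naming style. The lone BKC100 heart is replicate 1 but carries the second style. The block therefore groups it with the first-style hearts, and the covariate groups it with the second-style ones. In pancreas the block gave 15 genes higher and 29 lower in all, against 9 and 13 without it. The BKC100 heart could not be fitted without its 1 library. With 2 libraries a group, the median half-width of an ER gene's normal 95% interval was 0.72 in pancreas and 0.42 in adrenal gland on the log2 scale. These intervals are not adjusted, and larger changes (Edem1 in pancreas, Pdia4 and Eif2ak3 in adrenal gland) also missed the adjusted threshold, so they give no limit of detection. Depth is unknown.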
